A study of Homo sapiens with 6 samples.

Results

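The genes described here serve protein folding in the endoplasmic reticulum (ER) and the unfolded protein response, the signalling that adjusts this folding capacity. They are 45 of the 62700 genes in the deposited count table and were picked by gene symbol; each of the 45 symbols matched 1 row. RNA came from SAS, an established human squamous carcinoma cell line. Cells labelled wild type were given a control siRNA (3 libraries, called controls 1 to 3) and cells labelled as IGF2BP1 knockdown were given an siRNA against IGF2BP1 (3 libraries, knockdowns 1 to 3). IGF2BP1 binds mRNAs and protects them from decay, and the series asks whether it opposes the repression of YAP1 by Hippo signalling. Both groups therefore carry an siRNA and differ in its target; the sources used here give neither the time after transfection nor the siRNA sequence, nor whether it is a pool, and the model is 1 cell line. Separate cultures are not stated, so the p-values reflect differences among these 6 libraries, some of which may be technical.

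Secreted and membrane proteins enter the ER through the Sec61 channel, fold with the help of the HSP70 chaperone BiP (gene HSPA5), the lectins calnexin and calreticulin and the protein disulfide isomerases, and are sent to the cytosol for degradation when they fail. When unfolded proteins build up, the membrane sensors IRE1 (ERN1), PERK (EIF2AK3) and ATF6 are activated: IRE1 splices the XBP1 mRNA into the form that encodes an active transcription factor, PERK phosphorylates the translation factor eIF2alpha, and ATF6 is cut to release its own transcription factor domain. Squamous carcinoma cells make large amounts of matrix, adhesion and secreted proteins that pass through this system. Counts per gene measure mRNA level only; splicing of XBP1, cleavage of ATF6 and phosphorylation of eIF2alpha were not measured.

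Many promoters that respond to ATF6 and XBP1 carry the ER stress response element (ERSE), and the promoter matches are shown first because they are the sequence feature by which many of these genes are known. Promoters (250 bases before to 50 bases after each start site) came from RefSeq on GRCh38.p14 and were found for 41 of the 45 genes. Motifs were searched on both strands with no mismatch. The ERSE, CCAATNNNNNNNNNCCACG, was found in 7 of the 41 genes (17.1%) and in 25 of all 27305 genes of the promoter table (0.0916%), or 0.0769% of all 35116 promoters. The shorter ERSE-II, ATTGG and CCACG with 1 base of any kind between them, was found in 3 of 41 genes (7.32%) against 0.0696% of all genes (0.0541% of promoters), and TGACGTGG, the core of the UPR element (UPRE) read by XBP1, in 3 of 41 (7.32%) against 0.927% (0.729% of promoters). An ERSE holds a CCAAT box and an ERSE-II its reverse complement, both joined to CCACG, and 1 UPRE core of HYOU1 overlaps its ERSE-II. Loose parts of the motif were common: CCAAT alone stood in 80.5% of the 41 genes and 39.7% of all genes, and CCACG alone in 70.7% and 42.1%. Because many of these genes are known by this feature, their higher shares follow from how they were chosen and are no test. A match is a stretch of letters, and binding was not measured.

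The ERSE matches are printed with 20 bases on either side, read along the gene's own strand from 5′ to 3′, with the match in capitals. The first 3 belong to genes that fell after knockdown.

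XBP1, chr22:28800583-28800641, minus strand: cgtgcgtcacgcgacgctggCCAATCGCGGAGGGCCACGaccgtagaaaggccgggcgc

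CALR, chr19:12938364-12938422, plus strand: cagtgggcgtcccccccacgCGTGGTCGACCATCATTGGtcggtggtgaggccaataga

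CRELD2, chr22:49918534-49918592, plus strand: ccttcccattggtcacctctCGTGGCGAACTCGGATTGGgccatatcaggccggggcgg

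HSPA5, chr9:125241371-125241429, minus strand: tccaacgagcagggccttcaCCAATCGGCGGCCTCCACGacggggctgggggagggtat

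HSP90B1, chr12:103930196-103930254, plus strand: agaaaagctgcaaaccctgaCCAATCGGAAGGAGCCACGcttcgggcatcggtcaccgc

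HSP90B1, chr12:103930301-103930359, plus strand: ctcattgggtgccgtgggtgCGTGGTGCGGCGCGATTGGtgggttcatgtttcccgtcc

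PDIA6, chr2:10812833-10812891, minus strand: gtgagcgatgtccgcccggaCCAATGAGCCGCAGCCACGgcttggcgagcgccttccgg

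In CALR, CRELD2 and the second site of HSP90B1 the motif lies in reverse complement, so the capitals start with CGTGG. CANX was the other gene with an ERSE, 9 bases before 1 of its start sites. The match began 52 bases before the start site in XBP1, 66 in HSPA5, 80 in CRELD2, 86 in PDIA6 and 225 in CALR. ERSE-II matches were in HERPUD1, HYOU1 (2 matches) and SDF2L1, shown here because HERPUD1 and HYOU1 are standard readouts of the response.

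HERPUD1, chr16:56932005-56932055, plus strand: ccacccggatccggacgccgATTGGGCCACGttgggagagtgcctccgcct

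HYOU1, chr11:119057254-119057304, minus strand: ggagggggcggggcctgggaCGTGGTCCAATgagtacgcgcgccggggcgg

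SDF2L1, chr22:21642094-21642144, plus strand: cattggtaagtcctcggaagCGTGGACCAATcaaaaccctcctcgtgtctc

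**Figure D1:**
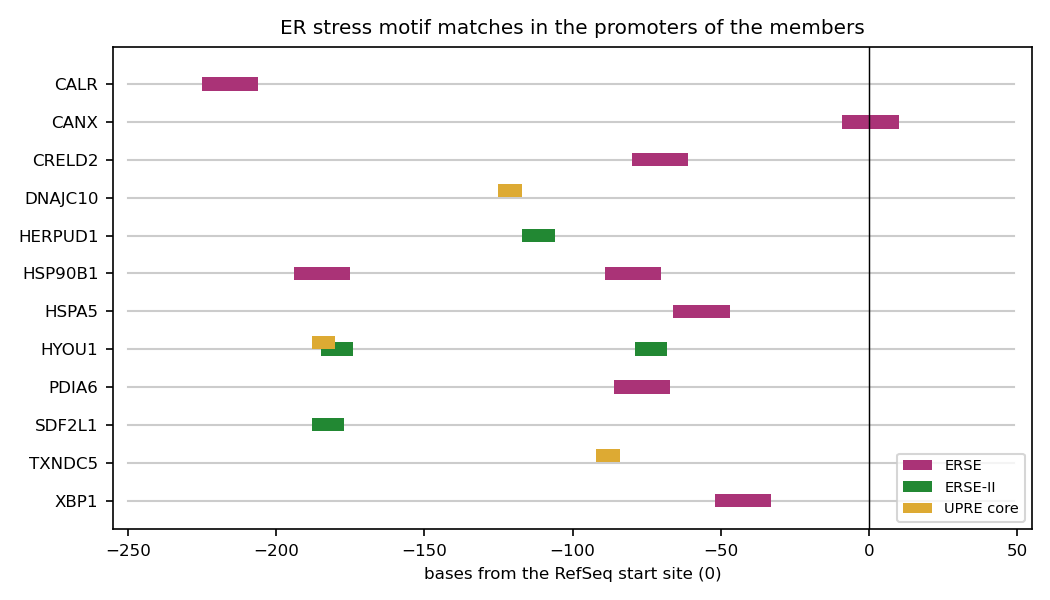
Positions of exact ERSE, ERSE-II and UPRE core matches (coloured boxes) in the promoters of the 12 genes with a match; the x axis is the distance in bases from the RefSeq start site, at 0. CANX is drawn from the start site nearest to its match, HSP90B1 and HYOU1 hold more than 1 match, and most boxes lie upstream of the start site.

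Library depth ranged from 17918496 to 26675064 counted reads, and 3 reads correspond to between 0.112 and 0.167 CPM, reads scaled to library size. Such floors cover counting error only. The knockdown was seen in the target: IGF2BP1 was at 8.11, 9.60 and 11.2 CPM in the controls against 1.59, 1.09 and 0.806 CPM in the knockdowns, each given in the order 1 to 3. The 10 squamous markers were all tested, and 4 of them were lower after knockdown, KRT5 (log2 fold change -2.91) and KRT6A (-2.02) the most. Their summed TPM, a level per gene length, was 11020 to 11963 in controls and 8154 to 8887 after knockdown. Most of this fall came from KRT5, at 2839, 2572 and 2590 TPM in controls and 385, 344 and 371 TPM in knockdowns. KRT17 (2202 to 2505 against 2316 to 2547 TPM) and SFN (3089 to 3464 against 3013 to 3518 TPM) overlapped between groups. The sum is therefore no measure of the whole list. Whether the fall of some squamous markers has a part in the ER gene results was not tested. Fewer cells of a type and less RNA per cell cannot be told apart in bulk RNA. Some other-cell markers had 0 reads in all 6 libraries: PTPRC and CD3E (leukocytes), COL3A1, LUM and DCN (fibroblasts) and KDR and CLDN5 (endothelium). Others had reads in every library. COL1A1 (fibroblasts) had 155, 114 and 188 reads in controls and 133, 98 and 102 in knockdowns. Among endothelial markers, VWF had 99, 102 and 120 against 199, 77 and 137 reads, and CDH5 49, 44 and 65 against 46, 64 and 72. In CPM, every knockdown library of CDH5 lay above every control library. Of these lists, 2 fibroblast and 2 endothelial markers were tested, and 0 were called. The leukocyte list summed to 0.220 to 1.01 TPM in controls and 0.458 to 0.850 TPM in knockdowns, the fibroblast list to 1.88 to 2.59 and 1.46 to 2.72 TPM, and the endothelial list to 2.36 to 2.87 and 2.56 to 4.86 TPM. The ER-rich plasma cell was covered by 6 markers, of which JCHAIN, IGKC, IGHG1, TNFRSF17 and POU2AF1 had 0 reads in all 6 libraries; the sixth, the surface proteoglycan gene SDC1, which epithelium also expresses, had a log2 fold change of -0.41 (edgeR adjusted p = 0.0155).

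Of the 45 genes, 44 passed the filter on low counts and were tested with edgeR, and a gene was called at a Benjamini-Hochberg adjusted p under 0.05 over all 14649 tested genes. After knockdown 8 of the 44 fell (18.2%) and 0 rose, while of all tested genes 6.66% were called lower and 6.27% higher (12.9% in either direction). The 8 were the disulfide isomerase genes PDIA4, P4HB and PDIA5, calreticulin (CALR), the degradation lectin OS9, the chaperone cofactor CRELD2 and the transcription factor genes XBP1 and ATF6B. CRELD2 fell by 25.1%, the smallest change of the 8, and PDIA4 fell by 40.2%, the largest. The median log2 fold change over the 44 was -0.23, against 0.03 over all tested genes.

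The genes of this group are well expressed, and abundant genes were called more often. Among tested genes at or above the lower quartile of the group's control level (7.28 CPM), a limit chosen after the values were seen, 12.5% were called lower and 7.99% higher; 8 of the 33 group members in that range were lower (24.2%) and 0 higher. In 17 of the 44 genes every knockdown library lay below every control library, and in 7 every knockdown library lay above; over all tested genes the shares were 15.1% and 15.5% (30.7% together). By unadjusted edgeR p under 0.05, 15 of the 44 were lower and 3 higher, beside 1840 lower and 1920 higher of all 14649 tested genes. DESeq2 and limma-voom also called 0 higher. The absence of rises depended on the fit: PPP1R15A was called higher with no scaling factor or with the stricter count filter, SEC24D without control 3, both with the replicate block, and CANX, PPP1R15A and SEC24D with no count filter.

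**Figure D2:**
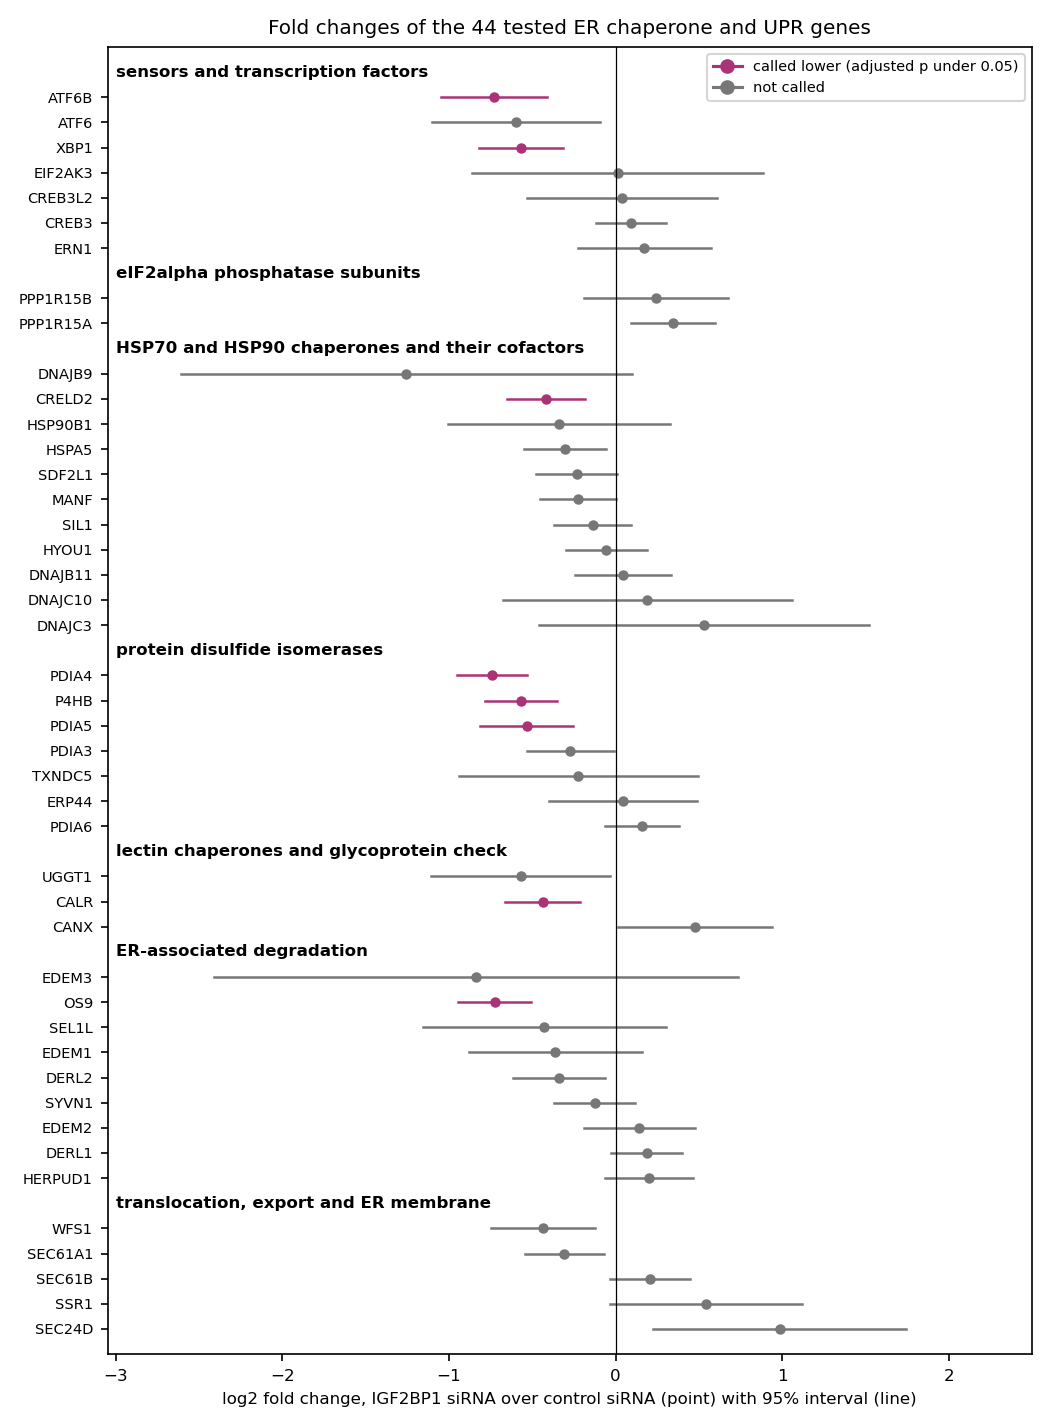
Log2 fold change (points; x axis, knockdown over control) with 95% interval (lines) of the 44 tested genes, grouped by role and sorted within each. The 8 called genes lie between -0.74 and -0.42, and the widest intervals belong to genes of low count such as DNAJB9 and EDEM3.

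Of the 7 sensors and transcription factors, XBP1 and ATF6B fell and 5 were not called. XBP1 (ENSG00000100219; GRCh38 chromosome 22, 28794555 to 28800597, minus strand), the transcription factor downstream of IRE1, was at 65.7, 68.9 and 77.2 CPM in controls against 49.1, 43.3 and 50.4 CPM in knockdowns. The groups did not overlap, and XBP1 fell by 32.6% (log2 fold change -0.57, SE 0.12, adjusted p = 0.00415). ATF6B (chromosome 6, 32115264 to 32128253, minus strand), the less studied relative of ATF6, was at 54.0, 44.7 and 36.8 CPM in controls and 27.4, 25.2 and 29.1 CPM after knockdown. Control 3 was the lowest control and still lay above all knockdown libraries (log2 fold change -0.73, SE 0.15, adjusted p = 0.00371). Genes on the same strand share 9.92% of the exon bases of ATF6B.

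ATF6 itself was at 5.96, 6.98 and 7.56 CPM in controls and 4.29, 4.33 and 4.91 CPM in knockdowns. Its groups did not overlap either, but it missed the threshold at a log2 fold change of -0.60 (95% interval -1.10 to -0.09, adjusted p = 0.118). The IRE1 gene ERN1 overlapped between groups, at 10.8, 11.9 and 9.59 CPM against 12, 13.3 and 11.1 CPM (log2 fold change 0.17, interval -0.23 to 0.57). The PERK gene EIF2AK3 was low throughout: 34, 25 and 43 reads in controls and 21, 40 and 35 after knockdown. Its interval ran from -0.86 to 0.89, so a change anywhere within that range, in either direction, was not excluded. CREB3 and CREB3L2, membrane-bound transcription factors of the same type as ATF6, had log2 fold changes of 0.09 and 0.04 and were not called; the sign of CREB3L2 turned in 3 of the fits without 1 library.

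**Figure D3:**
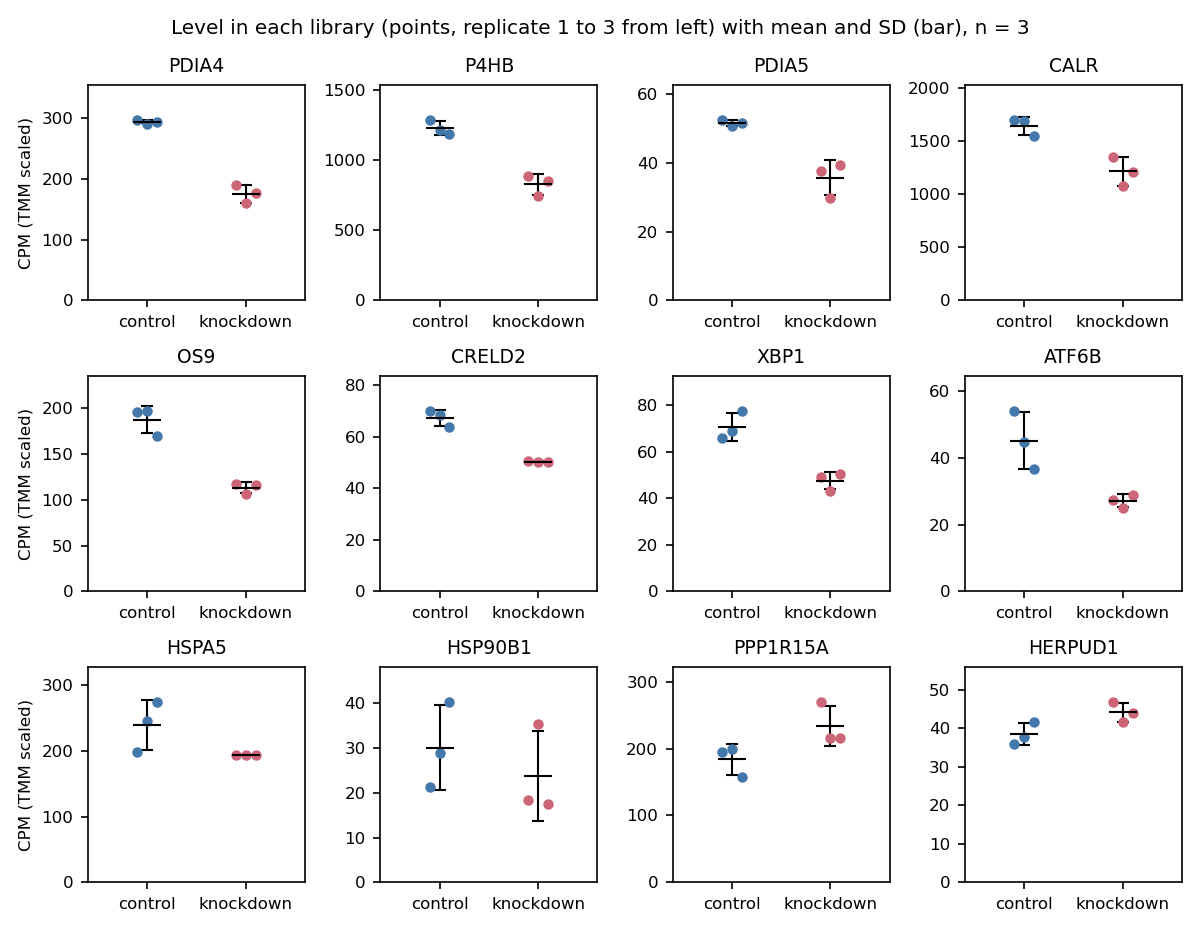
CPM (TMM scaled; y axis from 0) of 12 genes in each library, with the mean (long bar) and SD (whiskers) of each group, n = 3. In the first 8 panels, the called genes, no knockdown point reaches a control point, whereas in HSP90B1 knockdown 2, at 35.4 CPM, lies above 2 of the 3 controls.

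The 2 regulatory subunits of the phosphatase that reverses the PERK mark on eIF2alpha pointed upward without passing the test. PPP1R15A, the stress-induced subunit GADD34, was at 195, 199 and 157 CPM in controls and 269, 216 and 216 CPM after knockdown. Each knockdown library lay above each control library, knockdown 1 the farthest, and the log2 fold change was 0.34 (interval 0.09 to 0.60, adjusted p = 0.0721). The constitutive subunit PPP1R15B overlapped between groups (log2 fold change 0.24, adjusted p = 0.504). Downstream of PERK, the transcription factor genes ATF4 and DDIT3 (CHOP) were close to level: ATF4 averaged 582 ± 29.7 CPM with control siRNA and 556 ± 43.0 CPM with IGF2BP1 siRNA (SD, n = 3 each; log2 fold change -0.07, interval -0.28 to 0.15). DDIT3 averaged 15 ± 1.26 and 14.9 ± 2.56 CPM (SD, n = 3 each; log2 fold change -0.01, interval -0.39 to 0.37), and both signs turned with no scaling factor; 31.6% of the exon bases of DDIT3 are shared with opposite-strand genes. Of the 10 listed outputs of PERK and ATF4, 9 were tested and 0 were called by edgeR, DESeq2 or limma-voom. Their median log2 fold change was -0.07. At an unadjusted p under 0.05 in edgeR 2 of the 9 were higher and 0 lower, beside 1920 and 1840 of all 14649 tested genes.

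Among the 11 HSP70 and HSP90 chaperones and cofactors, 1 fell and 10 were not called, and 8 of the 11 fold changes were below 0. CRELD2, a secreted protein induced by ER stress, was at 69.8, 68.3 and 63.7 CPM in controls and 50.7, 50.2 and 50.2 CPM in knockdowns (log2 fold change -0.42, SE 0.11, adjusted p = 0.0186). The knockdown libraries almost coincided and lay below all controls. Its call was lost without control 1, control 2 or knockdown 3 (adjusted p = 0.0538, 0.062 and 0.0637), at nearly the same fold change.

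HSPA5, which encodes BiP, the main ER HSP70 and the repressor of the sensors, was at 198, 245 and 273 CPM in controls and 194, 193 and 193 CPM in knockdowns. Control 1 stood close to the knockdown level and the other controls above it; the log2 fold change was -0.30 (interval -0.55 to -0.06, adjusted p = 0.0989). Without control 1 the fall was called at -0.46 (adjusted p = 0.0208). HSP90B1, the ER HSP90 (GRP94), was at 21.2, 28.8 and 40.1 CPM in controls and 18.4, 35.4 and 17.5 CPM in knockdowns, so that the groups overlapped (log2 fold change -0.34, adjusted p = 0.545). Knockdown 2 stood apart from knockdowns 1 and 3, and without it the fold change was -0.77 (adjusted p = 0.030).

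HYOU1, the nucleotide exchange factor of BiP, averaged 239 ± 15.8 CPM with control siRNA and 230 ± 34.0 CPM with IGF2BP1 siRNA (SD, n = 3 each; log2 fold change -0.06, interval -0.30 to 0.19; above 0 with no scaling factor). The exchange factor SIL1 had -0.14, and the J-domain cofactor DNAJB11 and the secreted MANF had 0.05 (below 0 with GC correction and without control 1) and -0.23. The J-domain gene DNAJB9 (ERdj4), a classic XBP1 target, rested on 16, 15 and 28 reads in controls and 4, 8 and 11 after knockdown. Its groups did not overlap, yet the interval was wide (log2 fold change -1.26, -2.61 to 0.10, adjusted p = 0.234). SDF2L1, a partner of DNAJB11, had -0.23 (adjusted p = 0.217) and was called at -0.37 without knockdown 2 (adjusted p = 0.0397). The remaining J-domain genes DNAJC3 and DNAJC10 had log2 fold changes of 0.53 and 0.19 at group means of at most 2.47 CPM, were not called, and had their signs turn in fits without 1 library.

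The protein disulfide isomerases, which form and shuffle disulfide bonds, held 3 of the 8 falls among their 7 genes. PDIA4 (ENSG00000155660; chromosome 7, 149003062 to 149028641, minus strand) was at 296, 291 and 294 CPM in controls and 190, 161 and 176 CPM in knockdowns. The controls were almost identical, and the fall of PDIA4 had the smallest adjusted p of the 44 genes (log2 fold change -0.74, SE 0.10, adjusted p = 1.11e-04). P4HB (chromosome 17, 81843159 to 81860694, minus strand), the founding disulfide isomerase and a subunit of collagen prolyl hydroxylase, went from 1285, 1215 and 1187 CPM to 887, 746 and 853 CPM (log2 fold change -0.57, SE 0.10, adjusted p = 0.00126). PDIA5 (chromosome 3, 123067062 to 123225227, plus strand), an isomerase tied to ATF6 activation, went from 52.3, 50.7 and 51.6 CPM to 37.6, 29.9 and 39.4 CPM (log2 fold change -0.53, SE 0.13, adjusted p = 0.0126). Opposite-strand genes share 9.98% of the exon bases of P4HB, and same-strand genes 14.3% of those of PDIA5. In all 3 genes the lowest library was knockdown 2 and the groups were well apart.

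The family was not uniform. PDIA6, an isomerase that also regulates the sensors, was at 237, 282 and 279 CPM in controls and 287, 285 and 319 CPM in knockdowns (log2 fold change 0.16, interval -0.06 to 0.38, adjusted p = 0.375). Its interval does not overlap those of PDIA4, P4HB and PDIA5, which end at -0.53, -0.35 and -0.25; the difference itself was not tested, and 25.2% of the exon bases of PDIA6 are shared with ATP6V1C2 on the opposite strand. PDIA3, the isomerase that works with calnexin and calreticulin, had -0.27 (adjusted p = 0.175), and its near-identical copy PDIA3P1 held 111 to 173 reads a library against 2242 to 4945 of PDIA3. ERP44, which returns escaped proteins to the ER, had 0.04, below 0 in some fits. TXNDC5 averaged 3.20 CPM in controls and 2.75 CPM in knockdowns (log2 fold change -0.22, above 0 in 1 fit without a library), and as 60.6% of its exon bases are shared with a read-through transcript, its level is uncertain. Summed per gene length, the 7 isomerases reached 902 ± 17.1 TPM with control siRNA and 707 ± 29.4 TPM with IGF2BP1 siRNA (SD, n = 3 each). This fall came from P4HB and PDIA4, while PDIA6 was higher in each knockdown library (176, 212 and 211 against 225, 226 and 241 TPM). The sum therefore does not describe the whole family.

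Of the lectin chaperones, which hold glycoproteins while they fold, calreticulin fell and calnexin was not called; the difference between them was not tested. CALR (chromosome 19, 12938578 to 12944489, plus strand), the most abundant gene of the group per gene length, was at 1694, 1691 and 1544 CPM in controls and 1350, 1081 and 1210 CPM in knockdowns (log2 fold change -0.44, SE 0.11, adjusted p = 0.0113). Control 3 was the lowest control and lay above knockdown 1, the highest knockdown library; an antisense gene shares 9.95% of its exon bases. CANX, the membrane-bound counterpart, was at 48.7, 68.5 and 78.7 CPM against 76.6, 120 and 75.7 CPM (log2 fold change 0.48, interval 0.01 to 0.94, adjusted p = 0.18). Control 3 lay above 2 of the 3 knockdown libraries, so the groups overlapped. UGGT1, which reglucosylates unfolded glycoproteins so that the lectins bind them again, had -0.57 (adjusted p = 0.166), with knockdown 2 far above the other knockdowns; without knockdown 2 it was called at -0.97 (adjusted p = 0.00658).

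In ER-associated degradation, 1 of 9 tested genes fell and 8 were not called. OS9 (chromosome 12, 57693955 to 57721557, plus strand), a lectin that passes misfolded glycoproteins to the ubiquitin ligase, was at 196, 197 and 170 CPM in controls and 117, 106 and 117 CPM in knockdowns (log2 fold change -0.73, SE 0.10, adjusted p = 2.03e-04). The groups were far apart; an antisense gene shares 13.5% of its exon bases. HERPUD1, a strongly stress-induced scaffold of this machinery, was slightly higher in each knockdown library, at 36.0, 37.7 and 41.6 CPM against 46.7, 41.7 and 44 CPM, without passing the test (log2 fold change 0.20, interval -0.07 to 0.46, adjusted p = 0.356).

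The ligase SYVN1 (HRD1) and its partner SEL1L had -0.12 and -0.43. The mannosidase-like proteins EDEM1, EDEM2 and EDEM3 had -0.36, 0.14 and -0.84, the last on 2 to 18 reads a library. The derlins, channel proteins of retrotranslocation, differed in sign: DERL1 had 0.19 (adjusted p = 0.269) with knockdowns above controls, and DERL2 -0.34 (adjusted p = 0.103) with knockdowns below controls. DERL3 was not tested, with 1 read in control 3 and 0 in the other libraries, so its level was under the 3-read floor in all 6.

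The 5 genes of translocation, export and the ER membrane held 0 calls by edgeR. Of these 5, 3 had an unadjusted p under 0.05, beside 3760 of all 14649 tested genes. SEC61A1, the pore of the translocon, was lower in each knockdown library at 743 ± 45 CPM with control siRNA and 600 ± 80.9 CPM with IGF2BP1 siRNA (SD, n = 3 each). The difference, -0.31 on the log2 scale, missed the threshold (adjusted p = 0.0828), but SEC61A1 was called without knockdown 1 at -0.41 (adjusted p = 0.0104). Its small partner SEC61B had 0.21 and the translocon-associated SSR1 0.54, neither called. SEC24D, a cargo-binding subunit of the COPII export coat, was at 1.53, 2.45 and 4.37 CPM in controls and 4.62, 7.53 and 4.49 CPM in knockdowns. The groups did not overlap, although control 3 lay close to knockdowns 1 and 3, and the log2 fold change of 0.99 (interval 0.22 to 1.75) had an adjusted p of 0.086. WFS1, an ER membrane protein mutated in Wolfram syndrome, had -0.43 (adjusted p = 0.0651), and DESeq2 called it lower (-0.45, adjusted p = 0.0333).

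Levels were compared between genes per length, in TPM from the authors' gene lengths. CALR was at 1804 TPM in controls, P4HB at 340, SDF2L1 at 296, PDIA4 at 274, CREB3 at 242 and SEC61B at 214, while EIF2AK3 and EDEM3 were at 0.209 and 0.0862. Several authors' lengths exceed the longest annotated transcript, 11132 against 2603 bases for P4HB, which lowers the TPM of such genes. The 45 genes together reached a sum of 4773, 4885 and 4629 TPM in controls against 4342, 3948 and 3992 TPM in knockdowns. Every knockdown sum lay below every control sum, with a change in the mean of -14.0%. In TPM, most of this fall came from CALR, at 1841, 1862 and 1709 in controls and 1547, 1250 and 1334 in knockdowns. P4HB (352, 337 and 331 against 256, 217 and 237 TPM) and PDIA4 (274, 272 and 277 against 185, 158 and 165 TPM) came next. That ranking depended on the gene lengths. In CPM, not divided by length, CALR (1694, 1691 and 1544 against 1350, 1081 and 1210) and P4HB (1285, 1215 and 1187 against 887, 746 and 853) fell by similar amounts. Summed CPM of the 45 genes was 6573, 6674 and 6388 in controls against 5618, 4976 and 5319 in knockdowns. Of the 44 tested genes, 26 had a log2 fold change below 0 and 18 above 0. Sums of the lectin group went from 1824 ± 79.6 to 1402 ± 148 TPM (SD, n = 3 each), nearly all of it CALR. In that group CANX was at 10.8, 15.4 and 17.7 TPM in controls against 17.9, 28.3 and 17.0 TPM in knockdowns. UGGT1 was at 4.36, 5.08 and 6.63 against 3.41, 5.50 and 2.35 TPM. The lectin sum therefore describes CALR and not the group. Sums of the degradation group went from 289 ± 11.9 to 278 ± 16.5 TPM (SD, n = 3 each). The sensor, degradation and translocation groups depended on the scale: their TPM sums overlapped between groups, whereas their summed CPM, TMM scaled and not divided by length, put all knockdown libraries below all controls. Summed CPM of the degradation group was 587, 561 and 547 in controls against 517, 463 and 513 in knockdowns, and that of the translocation group, most of it from SEC61A1, was 867, 922 and 819 against 815, 651 and 737.

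**Figure D4:**
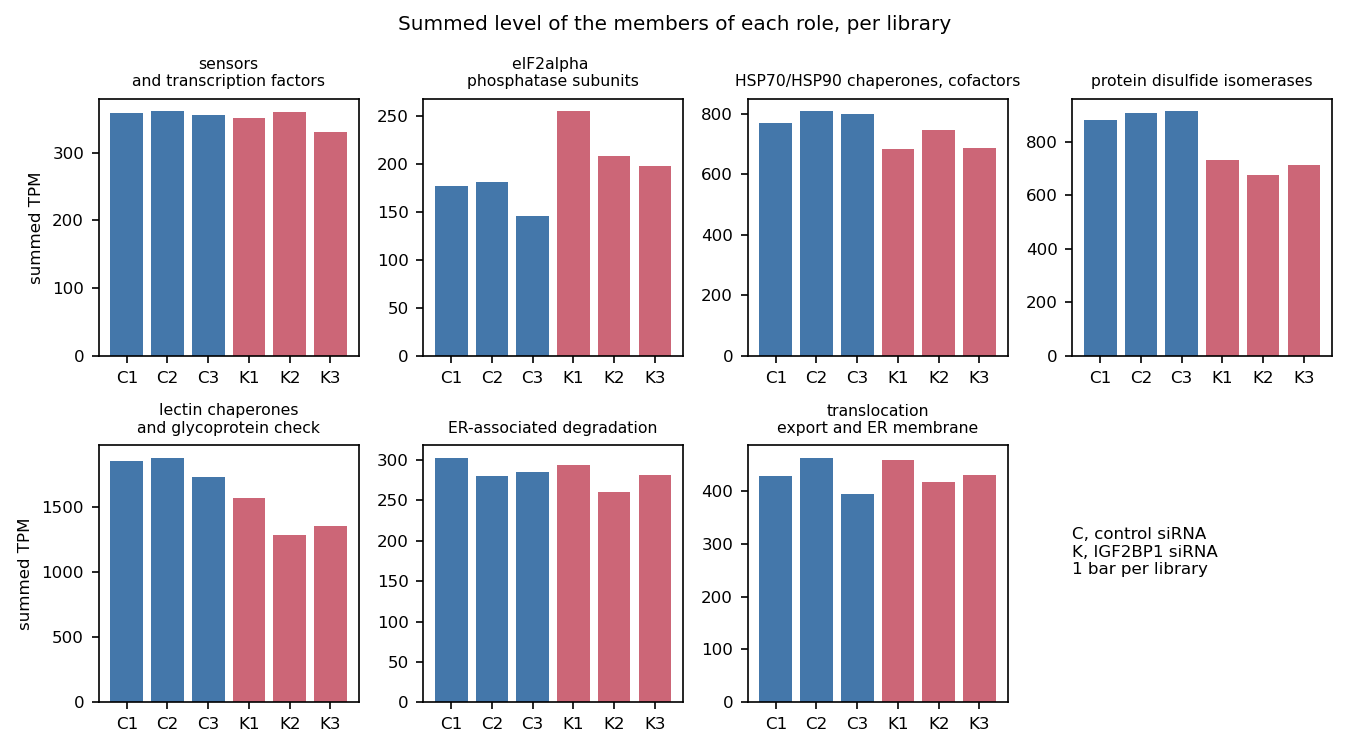
Summed TPM (y axis from 0, a separate scale for each panel) of the genes of each role in each library; bars C1 to C3 are controls and K1 to K3 knockdowns. The isomerase and lectin bars are lower in all 3 knockdown libraries, the phosphatase bars are higher, and on this scale the degradation and translocation bars overlap. The lectin bars are nearly all CALR, and the fall of the isomerase bars came from P4HB and PDIA4.

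The genes were also read by the transcription factor that is mostly credited with them. Of 7 genes mostly credited to XBP1, 0 were called by edgeR and the median log2 fold change was 0.21. An unadjusted p under 0.05 was found for 2 of the 7, beside 3760 of all 14649 tested genes. Of 9 genes mostly credited to ATF6, 2 fell (PDIA4 and CRELD2, the latter not called in the 3 fits given above), 0 rose, and the median was -0.30. Over all tested genes 6.66% were called lower and the median was 0.03, and the difference between the sets was not tested. Summed per gene length, the first set averaged 416 ± 35.4 TPM in controls and 425 ± 18.7 TPM in knockdowns (SD, n = 3 each). The second averaged 870 ± 16.9 and 705 ± 29.6 TPM (SD, n = 3 each). Most of the fall of the second sum came from PDIA4, at 274, 272 and 277 TPM in controls and 185, 158 and 165 TPM in knockdowns. Of its 9 fold changes, 7 were below 0 and 2 above. The direction of the first set depended on the scale: its summed CPM, most of it from SEC61A1, was 843 ± 54.8 and 716 ± 76.7 (SD, n = 3 each). Of the 7 genes with an ERSE printed or named above, CALR, CRELD2 and XBP1 fell and HSPA5, HSP90B1, PDIA6 and CANX were not called, with fold changes from -0.57 to 0.48 on the log2 scale. The other 5 called genes, PDIA4, P4HB, PDIA5, OS9 and ATF6B, held no exact ERSE in the window.

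A wider list of 116 other genes of ER folding, translocation, glycosylation, degradation, export and stress control gave 6 higher and 8 lower among 109 tested (5.50% and 7.34%, near the 6.27% and 6.66% of all genes), with a median of 0.08. The falls included 4 of 15 tested genes of N-glycan transfer and trimming, which had 0 rises. Both glucosidases of that list fell: MOGS, which removes the first glucose, from 276 ± 15.6 to 183 ± 20.8 CPM, and GANAB, which makes the forms bound by calnexin and calreticulin, from 1337 ± 59.4 to 983 ± 104 CPM (SD, n = 3 each). Their log2 fold changes were -0.60 and -0.44 (edgeR adjusted p = 0.00132 and 0.00957). ERP29, a redox-inactive isomerase relative, fell by 0.45 on the log2 scale, CREB3L4 by 0.61, and ERLIN1, a membrane scaffold of sterol and receptor degradation, by 1.15.

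Rises in the wider list were spread over several functions, some of which also held falls. TRAM1, a translocon-associated protein, rose from 10.5, 14.6 and 16.4 CPM to 23.1, 27.7 and 26.1 CPM (log2 fold change 0.89, adjusted p = 0.00336). KDELR1, a receptor that returns ER residents from the Golgi, rose by 0.44, the membrane oxidoreductase TMX4 by 0.77 and UBXN6, a cofactor of the degradation ATPase VCP, by 0.36. KDELR1 kept its call only without knockdown 2, TMX4 only without control 1 or knockdown 1, and UBXN6 only without knockdown 1 or 2, among the fits that leave out 1 library (highest adjusted p = 0.103, 0.110 and 0.103). CREB3L1, another ATF6-type transcription factor, rose on 13, 3 and 15 reads in controls and 51, 33 and 37 after knockdown (log2 fold change 2.12, adjusted p = 0.0203), and was not called without control 2 or knockdown 1 (adjusted p = 0.076 and 0.114). Without control 1, 2 or 3 or knockdown 3, the 6 rises were 3, 1, 2 and 2, and without control 2 the 8 falls were 5. A part list of 16 genes held the COPII coat and cargo receptors, and also KDELR1, KDELR2 and KDELR3, which return proteins to the ER. It summed to 1067 ± 15.6 TPM with control siRNA and 1337 ± 151 TPM with IGF2BP1 siRNA (SD, n = 3 each). Most of this rise came from KDELR1, the called member, at 466, 436 and 460 TPM in controls and 767, 521 and 624 TPM in knockdowns. The sum is therefore no measure of the COPII coat.

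Base composition moved with library differences in part of the group. Over all tested genes, transcripts in the lowest quintile of GC content were lower in control 1 (median -0.26 from each gene's mean, log2) and higher in knockdown 2 (0.32). The 13 group members of that quintile had medians of -0.23, 0.22 and 0.35 in the controls, against -0.21, 0.15 and -0.17 in the knockdowns. HSP90B1 and CANX, whose longest transcripts have 41.2% and 41.6% GC, were each highest in control 3 among the controls and in knockdown 2 among the knockdowns. Of the called genes, 7 of 8 have 50.8% to 58.4% GC, and XBP1 has 41.5%. Falls were also more common among all genes in that range. From the lowest to the highest GC quintile, 1.47%, 4.24%, 8.07%, 10.7% and 9.40% of tested genes were called lower. Among the group members, 1 of 13, 0 of 9, 3 of 9, 4 of 11 and 0 of 2 were. With offsets that remove the GC trend of each library, an alternative added after the data were seen, all 8 stayed called, HSPA5 (-0.34, adjusted p = 0.0163), PDIA3, SEC61A1 and WFS1 were also lower, and CANX (0.42, adjusted p = 0.0238) and PPP1R15A (0.30, adjusted p = 0.0443) were higher.

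**Figure D5:**
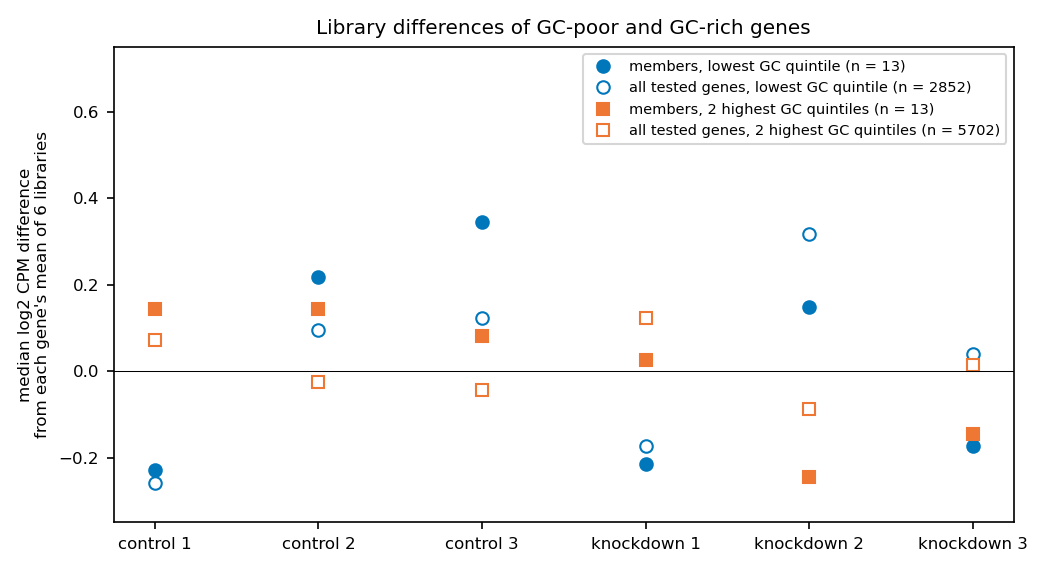
Median difference of log2 CPM from each gene's mean of the 6 libraries (y axis), by library, for genes in the lowest (circles) and 2 highest (squares) quintiles of transcript GC content; filled symbols are the 13 and 13 group members and open symbols all tested genes. GC-poor members are lowest in control 1 and knockdown 1 (-0.23 and -0.21), and GC-rich members are lower in every knockdown library than in any control.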

How the data were processed

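Poly(A) RNA of SAS cells (6 libraries, 3 per group) was sequenced from directional dUTP libraries, per the labels' protocols. The authors deposited raw read counts per gene, and a gene length in bases as another column. Per the submitters' processing notes, cutadapt 2.8, HISAT2 2.1.0, SAMtools 1.10, featureCounts 2.0.0 and hg38 were used; the annotation release, strand setting and handling of multi-mapped reads were not given in the sources used here, so values of genes that overlap others or have near-identical copies are uncertain. Columns were matched by library name, and 0 per-sample columns were left unused.

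Genes passing filterByExpr (minimum count 10, minimum total 15) entered the quasi-likelihood test of edgeR 4.0.16 under R 4.3.3 (TMM, robust glmQLFit and glmQLFTest, 2 groups, no covariate), adjusted by Benjamini-Hochberg. CPM values are TMM scaled; TPM were computed over all genes from the deposited lengths. SE is the log2 fold change divided by the square root of the quasi-F statistic. The procedure was tested on simulated data, where it missed many changes of the size seen here and made somewhat more false calls than the nominal rate. A gene that was not called may therefore have changed, and a single call may be false. The changed genes were drawn from all tested genes, many of them less abundant than most members, so the share missed may differ for abundant members. Coordinates, exon overlaps and GC content (of the longest transcript; 97.3% of tested genes) come from GENCODE release 29 on GRCh38, promoters from RefSeq.

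Genes with values in all libraries were chosen by rule: every called member, 9 fixed members and, in the wider list, ATF4, DDIT3 and up to 5 called genes per direction; other members are given by fold change, and some single values (SEC24D, CANX, UGGT1, PDIA6, TRAM1) were picked after they were seen. The members and lists were chosen with earlier results of these data known. Alternatives were RLE or no scaling, no filter or one of 5 CPM in 3 libraries, DESeq2 1.42.0, limma-voom (limma 3.58.1), a replicate block, each library left out in turn and, added after the data were seen, offsets corrected for GC content (loess span 0.3).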

Additional observations from a re-analysis of the deposited data

How the results depend on the processing

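The 8 falls were called under each alternative, except CRELD2 in the 3 fits named above. The count of rises, 0, became 1 with no scaling factor, 3 with no count filter, 1 with the stricter filter, 2 with GC-corrected offsets, and 0 to 1 without 1 library. With the replicate block it was 2 (PPP1R15A at 0.34, adjusted p = 0.018, and SEC24D at 1.05, adjusted p = 0.041), and 10 genes were lower, with SEC61A1 and WFS1 added. Whether the numbers pair the libraries was not settled. Deviations of same-numbered libraries correlated at 0.18, 0.09 and -0.07, and those of differently numbered libraries at -0.23 to 0.17. Controls 1 and 2 and knockdown 1 correlated best with their own number, and the other libraries did not. Deviations from a group mean cancel out within the group, so with 3 libraries a group these correlations cannot exclude pairing. Without 1 library, 7 to 12 genes were lower, and 12 with no count filter or with GC-corrected offsets. In the wider list, rises were 12 with no scaling factor and 1 to 9 without 1 library, and falls were 5 and 5 to 9. Over all genes 1893 calls became 2431 with the replicate block and 1231 to 1948 without 1 library, the lowest without control 2. Of all calls, 48.5% were higher, 63.2% with no scaling factor and 38.0% with GC-corrected offsets.

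Some fold changes of genes that were not called turned sign. EIF2AK3 had -0.0034 with RLE scaling and with DESeq2 and -0.056 with GC-corrected offsets; DNAJB11 and ERP44 had -0.048 and -0.050 with these offsets. With no scaling factor ATF4 had 0.017, DDIT3 0.068 and HYOU1 0.026, and with the stricter filter DDIT3 had 0.023. Without 1 library the log2 fold change ranged from -0.19 to 0.14 for EIF2AK3, -0.17 to 0.0503 for DDIT3, -0.22 to 0.27 for CREB3L2, -0.17 to 0.0142 for HYOU1 and -0.0188 to 0.0666 for DNAJB11. It ranged from -0.0549 to 0.85 for DNAJC3, -0.22 to 0.38 for DNAJC10, -0.19 to 0.25 for ERP44 and -0.60 to 0.02 for TXNDC5. The cause was not tested. Depth limits EIF2AK3, DNAJB9, EDEM3, DNAJC3, DNAJC10, SEL1L and TXNDC5, which had few reads and wide intervals.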

Other observations

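IRE1 also degrades a set of ER-bound mRNAs, and 7 such substrates, a list drawn up with earlier results known, were read beside the folding genes. All 7 were tested, 3 were higher after knockdown and 0 lower. PDGFRB, a growth factor receptor, went from 15, 18 and 10 reads in the controls to 28, 52 and 36 in the knockdowns (log2 fold change 1.52, edgeR adjusted p = 0.0491). PMP22, a membrane glycoprotein, went from 1.95 ± 0.783 to 4.41 ± 0.586 CPM (SD, n = 3 each; 1.17, edgeR adjusted p = 0.0273), and HGSNAT, a lysosomal enzyme, from 7.64 ± 1.69 to 14.7 ± 0.440 CPM (SD, n = 3 each; 0.94, edgeR adjusted p = 0.00562); HGSNAT falls outside the naming rule and was added after its values were seen. BLOC1S1, the substrate used most often as a readout of this decay and also named after its values were seen, averaged 16.7 ± 1.12 CPM with control siRNA and 15.1 ± 1.16 CPM with IGF2BP1 siRNA (SD, n = 3 each; log2 fold change -0.15, interval -0.49 to 0.20). The median of the 7 was 0.12, and 6.27% of all tested genes were called higher. The call of PDGFRB was lost in each fit without 1 library (highest edgeR adjusted p = 0.186), with no count filter and with limma-voom (adjusted p = 0.0564 and 0.0605), and that of PMP22 without control 1, control 2, knockdown 1 or knockdown 3 (highest edgeR adjusted p = 0.130); HGSNAT was called in all of them.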
